A study of Drosophila melanogaster with 12 samples.

Results

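The genes described here make, store and break down fat. They are 10 genes chosen by symbol for these roles, of 17730 genes in the count table: ACC, FASN1, FASN2, FASN3, Desat1, mdy, Lsd-1, Lsd-2, bmm and Lip4. RNA was measured in whole heads of adult Drosophila melanogaster, 1 day old and of both sexes, in pools of heads, with 3 libraries in each of 4 groups. The mTET2-wt, mTET2-R43G and mTET2-R1261C groups carried the driver dTet-Gal4 and a UAS transgene of mouse TET2, unchanged or with a substitution in its N-terminus (R43G) or its catalytic domain (R1261C). The control group (dTet-Gal4>w1118) carried the same driver without a transgene, so that Gal4 was present in all groups. dTet-Gal4 is active in cells that express the fly gene dTet, so that the transgenes were not driven in every cell of the head, and each transgene was placed at the same landing site on the second chromosome, which the controls lacked. The mouse transgene is not a row of the table, and its level was not analysed here.

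Animals build fatty acids from acetyl-CoA in the cytosol. Acetyl-CoA carboxylase makes malonyl-CoA, fatty acid synthase joins these units into a saturated chain, and a desaturase adds a double bond. The chains are joined to glycerol to form triglyceride, which is kept in lipid droplets coated by perilipins and is released by lipases. In the fly most of this takes place in the fat body, a tissue with the tasks of liver and fat, of which a part lies in the head around the brain. Oenocytes, cells under the cuticle, make the long chains that become cuticular hydrocarbons.

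Levels are given in CPM, the usual unit of read pairs on a gene for a fixed number of counted pairs in its library, with TMM factors. The libraries held 15894383 to 19434046 counted read pairs, and the 10 genes took 0.525% to 1.24% of them. All 10 were among the 12433 genes to which the model was fitted, those with 10 or more read pairs over all libraries. A gene was called where the adjusted p-value of edgeR's quasi-likelihood test was at most 0.05 and its log2 fold change was 1 or more in size. Head tissue was well represented: the summed level of 10 neuron and photoreceptor markers was 32643 to 40761 CPM in the mTET2 libraries and 30066 to 38087 CPM in control. The summed level of 4 glial markers was 1495 to 1588 CPM in mTET2-wt and 1413 to 1573 CPM in mTET2-R43G, below the 1717 to 2084 CPM of control, while mTET2-R1261C, at 1530.5 to 1787 CPM, overlapped control. Of these markers, repo did not follow the sum and overlapped control in each mTET2 group. It had 57.9 to 68.7 CPM in the mTET2 libraries and 59.3 to 64.2 CPM in control. The part of glia in the results was not tested. Some libraries stood apart. The mTET2-wt replicate 3 had 2469 CPM of 27 midgut enzyme genes, against 63.7 to 403 CPM in the others, and control replicate 3 had 46280 CPM of 4 female-biased genes (Yp1, Yp2, Yp3 and fit), against 9207 to 25609 CPM in the others.

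Across the 12 libraries the levels of the 10 genes ranged from the 33.4th percentile of tested genes by mean CPM (FASN3) to the 99.8th (FASN1). Per kilobase of gene span, the region over which read pairs were counted, FASN1 averaged 291 CPM and Desat1 282 CPM, followed by ACC with 83.1 CPM, Lsd-2 with 35.5 CPM and Lsd-1 with 20.8 CPM. The lipase genes bmm and Lip4 averaged 12.0 and 9.69 CPM per kilobase of span, and mdy 7.42 CPM. FASN2 and FASN3 were far lower, at 0.461 and 0.396 CPM per kilobase of span. Per kilobase of coding length the order changed for 8 of the 10 genes, with Desat1 first at 1970 CPM and FASN1 second at 443 CPM, while FASN2 and FASN3 stayed lowest.

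**Figure D1:**
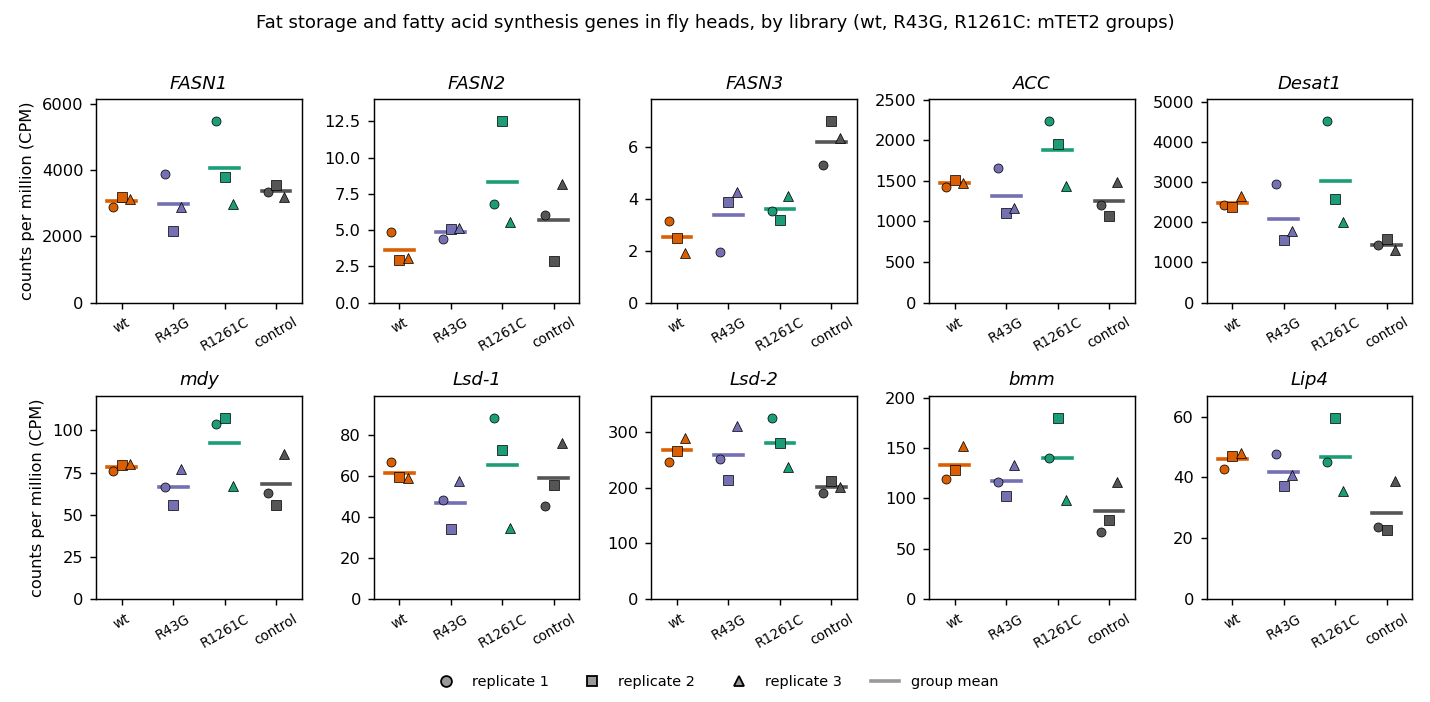
CPM (vertical axes, linear, starting at 0) of each of the 10 genes in the mTET2-wt, mTET2-R43G, mTET2-R1261C and control libraries; points are libraries, marked by replicate, and lines are group means. FASN3 lies lower in all mTET2 libraries than in any control library, and Lsd-2 lies higher.

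To learn whether mouse TET2 changed these genes, each mTET2 group was first compared with control. In mTET2-wt heads 1 of the 10 genes was called, FASN3, which was lower. Of all tested genes 1.2% were called in this comparison. In mTET2-R43G heads 0 of the 10 were called in edgeR, where 1.34% of all genes were, and in mTET2-R1261C heads 0 of the 10 in edgeR, where 0.748% of all genes were. DESeq2 called 1 in mTET2-wt, FASN3, 0 in mTET2-R43G and 1 in mTET2-R1261C, Desat1. Of all genes it called 226, 231 and 157 in the same order, more than the 149, 167 and 93 of edgeR. At an unadjusted p under 0.05, 5 of the 10 genes passed in mTET2-wt (14.7% of all genes), 3 in mTET2-R43G (23% of all genes) and 7 in mTET2-R1261C (11.8% of all genes). The median log2 fold change of the 10 genes was 0.22 in mTET2-wt and 0.01 in mTET2-R43G. It was 0.51 in mTET2-R1261C. The median of all tested genes lay between -0.01 and 0.00 in these comparisons. These comparisons share the control libraries.

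The groups can also be compared library by library. In mTET2-wt, 4 of the 10 genes lay higher in every library than in any control library (Lsd-2, Desat1, bmm and Lip4) and 2 lay lower (FASN3 and FASN1). Among all tested genes 11.7% lay higher in this way and 11.7% lower. In mTET2-R43G, 1 gene lay higher (Lsd-2) and 1 lower (FASN3), against 12.9% and 13.7% of all genes. In mTET2-R1261C, 2 genes lay higher (Lsd-2 and Desat1) and 1 lower (FASN3), against 6.87% and 8.48% of all genes. The share of all tested genes that lay apart from control in every mTET2 library, or apart between mTET2 groups, was not computed. Separations of these kinds are given in text and figures without a background.

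**Figure D2:**
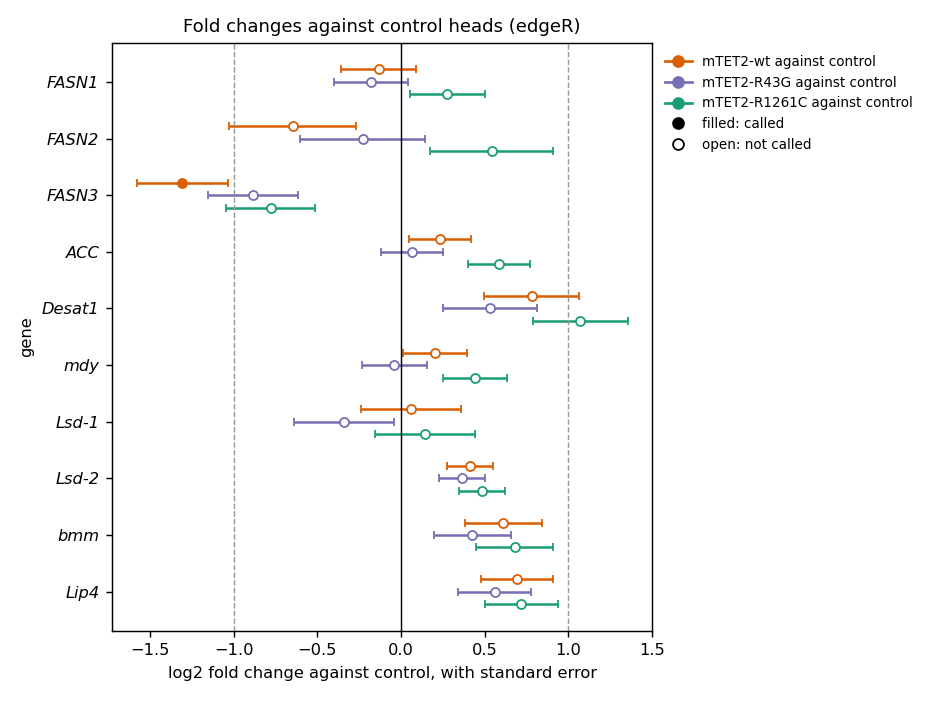
Log2 fold change of each gene against control (horizontal axis) with its standard error, for mTET2-wt, mTET2-R43G and mTET2-R1261C; filled points were called, open points were not, and dashed lines mark a log2 fold change of 1 in either direction. FASN3 in mTET2-wt, at -1.31, is the filled point, and Desat1 in mTET2-R1261C, at 1.07, lies past the dashed line without passing the adjusted p.

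The first committed step of fatty acid synthesis is made by ACC, acetyl-CoA carboxylase (chromosome 2R, 7974115 to 7991862, minus strand, dm6). ACC had 2232, 1949 and 1438 CPM in mTET2-R1261C libraries, 1425, 1509 and 1476 CPM in mTET2-wt, 1659, 1108 and 1161 CPM in mTET2-R43G heads, and 1195, 1069 and 1483 CPM in control. Each mTET2 group overlapped control, and control replicate 3 was above the lowest mTET2-R1261C library. Against control, the log2 fold change of ACC was 0.58 (SE 0.19, adjusted p = 0.196) in mTET2-R1261C, 0.23 (SE 0.19, adjusted p = 0.625) in mTET2-wt and 0.07 (SE 0.19, adjusted p = 0.864) in mTET2-R43G.

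The fly genome holds 3 fatty acid synthase genes. FASN1 serves the fat body and most other tissues, while FASN2 and FASN3 are known for roles in oenocytes, where their products feed cuticular hydrocarbons. FASN1 (chromosome 2L, 3056598 to 3068177, plus strand) lies next to FASN2 (2L, 3043947 to 3056143, plus strand), and pairs that could be placed on both were left out of the counts, so their similar parts may be under-counted. FASN1 was the most abundant of the 10 genes, with 2890, 3183 and 3135 CPM in mTET2-wt, 3875, 2162 and 2886 CPM in mTET2-R43G heads, 5485, 3794 and 2972 CPM in mTET2-R1261C heads, and 3353, 3562 and 3188 CPM in control. The mTET2-wt libraries lay just under the control libraries, and the libraries of the mutants lay on both sides of them. FASN1 differed from control by a log2 fold change of -0.13 (SE 0.22, adjusted p = 0.843) in mTET2-wt and -0.18 (SE 0.22, adjusted p = 0.678) in mTET2-R43G. In mTET2-R1261C it was 0.28 (SE 0.22, adjusted p = 0.729).

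FASN2 was expressed at a low level, from 2.89 to 12.5 CPM. Its libraries had 6.82, 12.5 and 5.54 CPM in mTET2-R1261C heads, 4.87, 2.97 and 3.06 CPM in mTET2-wt, 4.35, 5.06 and 5.12 CPM in mTET2-R43G heads, and 6.03, 2.89 and 8.19 CPM in control. Control spread so widely that every mTET2 group overlapped it. The mTET2-R1261C libraries lay above all mTET2-wt and all mTET2-R43G libraries, with no share of all genes computed. Against control, FASN2 had a log2 fold change of 0.54 (SE 0.37, adjusted p = 0.643) in the mTET2-R1261C group, -0.65 (SE 0.38, adjusted p = 0.478) in mTET2-wt and -0.23 (SE 0.38, adjusted p = 0.761) in the mTET2-R43G group. Small nuclear RNA genes lie within FASN2 on the same strand, and pairs on both were not counted.

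FASN3 was the gene of the 10 with the clearest change. It lies on chromosome 3L (25752859 to 25762779, minus strand) and carries an older identifier in the table, which was matched to the symbol by position. FASN3 had 3.13, 2.50 and 1.92 CPM in mTET2-wt heads (54, 48 and 37 read pairs), against 5.32, 7.01 and 6.34 CPM in control heads (90, 136 and 110 read pairs). The groups did not overlap. The mean was 2.52 ± 0.61 CPM in mTET2-wt and 6.22 ± 0.85 CPM in control (SD, n = 3 each), with a log2 fold change of -1.31 (SE 0.27, adjusted p = 0.0299 in edgeR), which is 0.404 times the control level. In bulk heads, fewer cells of a type and less RNA per cell cannot be told apart.

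The mutants lay on the same side. FASN3 had 1.94, 3.90 and 4.28 CPM in mTET2-R43G heads. In mTET2-R1261C heads it had 3.54, 3.19 and 4.13 CPM. These values were all under the lowest control library at 5.32 CPM. The log2 fold changes were -0.89 (SE 0.27, adjusted p = 0.0831) in mTET2-R43G and -0.78 (SE 0.27, adjusted p = 0.236) in mTET2-R1261C, and neither was called in edgeR. Averaged over the mTET2 groups, FASN3 had a log2 fold change against control of -0.99 (SE 0.21, adjusted p = 0.0227), just inside the limit of 1. This adjusted p was 0.127 without control replicate 2 and 0.0841 without control replicate 3. FASN3 was lower in 9 of 9 mTET2 libraries than in each control library. How many of all tested genes separated so was not counted. The mutants were not called against mTET2-wt in FASN3: the log2 fold change of mTET2-R43G against mTET2-wt was 0.42 (SE 0.28, adjusted p = 0.599), and the mTET2-R1261C value against mTET2-wt was 0.53 (SE 0.28, adjusted p = 0.807).

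The FASN3 call in mTET2-wt rested on few read pairs and did not survive every choice. DESeq2 gave an adjusted p of 0.000798. When 1 library was left out, the adjusted p was 0.0482 without mTET2-wt replicate 1, 0.101 without replicate 2 and 0.116 without replicate 3, and 0.0542, 0.119 and 0.0719 without control replicates 1, 2 and 3, while the log2 fold change stayed between -1.49 and -1.14. Without both mTET2-wt replicate 3 and control replicate 3 it was -1.13 (adjusted p = 0.199).

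Several of the oenocyte markers tested were scarce in these heads. The oenocyte genes eloF, Fad2 and CG17560 were at or near 0, with at most 1.20 CPM in any library. FarO, a fatty acyl-CoA reductase gene of oenocytes, was higher than these and, like FASN3, lower in mTET2-wt. FarO had 5.63, 5.68 and 4.56 CPM in mTET2-wt heads, against 9.94, 8.04 and 7.96 CPM in control heads, and the groups did not overlap. FarO was the exception, as 4 of the 5 tested markers had a positive log2 fold change in mTET2-wt against control. The median of the 5 was 1.46, though eloF, Fad2 and CG17560 were near 0 CPM. In the mutants FarO overlapped control, with 6.29, 6.51 and 9.40 CPM in mTET2-R43G heads and 9.31, 6.32 and 6.27 CPM in mTET2-R1261C heads. Of 7 oenocyte markers 5 were tested. Cyp4g1 and CG17562 had fewer than 10 read pairs over all libraries and were left out. Pairs on more than 1 gene were not counted, so such counts may understate the RNA of a gene. The summed level of the 5, carried by svp, was 102 to 136 CPM in the mTET2 libraries and 114 to 117 CPM in control. The part of oenocytes in the FASN3 difference was not tested. By the root mean square difference of centred log2 CPM over 12 libraries, the genes most like FASN3 among 9510 were CG31676 (0.26), CG18473 (0.27) and Or46a (0.29), where FASN3 itself had a standard deviation of 0.50. Or46a encodes an odorant receptor. This likeness is a description of these libraries.

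Desat1 encodes the main acyl-CoA desaturase of the fly, which puts a double bond into palmitic and stearic acid (chromosome 3R, 12439600 to 12447616, plus strand). Desat1 had 4513, 2587 and 2012 CPM in mTET2-R1261C heads, 2425, 2371 and 2651 CPM in mTET2-wt, 2949, 1546 and 1774 CPM in mTET2-R43G heads, and 1435, 1584 and 1314 CPM in control. All libraries of mTET2-R1261C and mTET2-wt lay above all control libraries, and 1 mTET2-R43G library lay among them. Desat1 differed from control by a log2 fold change of 1.07 (SE 0.28, adjusted p = 0.104) in mTET2-R1261C heads, 0.78 (SE 0.28, adjusted p = 0.209) in mTET2-wt and 0.53 (SE 0.28, adjusted p = 0.28) in mTET2-R43G.

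The estimate of Desat1 in mTET2-R1261C moved with single libraries. Replicate 1 held 3.44 times the Desat1 level of the lowest library, control replicate 3. Without mTET2-R1261C replicate 1 the log2 fold change was 0.67 (adjusted p = 0.325), and without mTET2-R1261C replicate 3 it was 1.30 (adjusted p = 0.0439) and Desat1 was called. DESeq2 also called it, with a log2 fold change of 1.09 (adjusted p = 0.0419).

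Storage as triglyceride ends with mdy (midway), the diacylglycerol acyltransferase that adds the last fatty acid (chromosome 2L, 16816660 to 16826964, plus strand). mdy had 104, 108 and 67.0 CPM in mTET2-R1261C heads, 75.6, 79.7 and 80.1 CPM in mTET2-wt, 66.6, 55.8 and 76.9 CPM in mTET2-R43G heads, and 62.6, 56.0 and 86.1 CPM in control. Every group overlapped control. Against control, mdy had a log2 fold change of 0.44 (SE 0.19, adjusted p = 0.384) in the mTET2-R1261C group, 0.20 (SE 0.19, adjusted p = 0.696) in mTET2-wt and -0.04 (SE 0.19, adjusted p = 0.937) in the mTET2-R43G group.

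The perilipins Lsd-1 and Lsd-2 coat lipid droplets: Lsd-1 helps lipases reach the fat when it is to be used, and Lsd-2 shields the store. Lsd-2 (chromosome X, 15069127 to 15076220, minus strand) had 246, 266 and 289 CPM in mTET2-wt, 251, 213 and 311 CPM in mTET2-R43G heads, 326, 279.8 and 236 CPM in mTET2-R1261C heads, and 189, 211 and 201 CPM in control. It was higher in 9 of 9 mTET2 libraries than in every control library, though the lowest, in mTET2-R43G at 213 CPM, lay next to the highest control library at 211 CPM. The share of all tested genes that separated in this way was not computed. Lsd-2 differed from control by a log2 fold change of 0.41 (SE 0.14, adjusted p = 0.173) in mTET2-wt, 0.37 (SE 0.14, adjusted p = 0.148) in mTET2-R43G and 0.49 (SE 0.14, adjusted p = 0.139) in mTET2-R1261C. Averaged over the mTET2 groups, Lsd-2 had 0.42 (SE 0.12, adjusted p = 0.0703), which did not pass in edgeR, and 0.43 (adjusted p = 0.00849) in DESeq2, under the minimum fold change.

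Lsd-1 (chromosome 3R, 23763857 to 23766662, plus strand) did not follow Lsd-2. It had 66.9, 59.4 and 58.8 CPM in mTET2-wt, 48.4, 34.2 and 57.7 CPM in mTET2-R43G heads, 88.6, 72.8 and 34.8 CPM in mTET2-R1261C heads, and 45.5, 55.8 and 76.1 CPM in control. All groups overlapped control, and the mTET2-R1261C libraries alone spanned 34.8 to 88.6 CPM. Lsd-1 differed from control by a log2 fold change of 0.06 (SE 0.30, adjusted p = 0.954) in mTET2-wt, -0.34 (SE 0.30, adjusted p = 0.534) in the mTET2-R43G group and 0.14 (SE 0.30, adjusted p = 0.926) in the mTET2-R1261C group. The mTET2-R43G libraries lay under all mTET2-wt libraries, with a log2 fold change of -0.40 (SE 0.30, adjusted p = 0.641). For this separation the share of all genes was not computed.

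Fat is released by bmm (brummer), the fly relative of the mammalian adipose triglyceride lipase, and Lip4 is a lipase of the acid lipase family. bmm (chromosome 3L, 14776496 to 14786412, minus strand) had 119.6, 128 and 152 CPM in mTET2-wt, 116, 103 and 134 CPM in mTET2-R43G heads, 140.3, 180.5 and 98.5 CPM in mTET2-R1261C heads, and 66.9, 78.2 and 117 CPM in control. Control replicate 3 alone reached the mTET2 levels, and the mTET2-wt libraries lay above it. Against control, bmm had a log2 fold change of 0.61 (SE 0.23, adjusted p = 0.225) in mTET2-wt, 0.43 (SE 0.23, adjusted p = 0.286) in mTET2-R43G and 0.68 (SE 0.23, adjusted p = 0.223) in mTET2-R1261C.

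Lip4 (chromosome 2L, 10527572 to 10531778, plus strand) was, like bmm, highest in replicate 3 among the control libraries. It had 42.8, 47.1 and 48.0 CPM in mTET2-wt, 47.7, 37.2 and 40.8 CPM in mTET2-R43G heads, 45.2, 59.8 and 35.5 CPM in mTET2-R1261C heads, and 23.7, 22.6 and 39.0 CPM in control. Control replicates 1 and 2 lay under every mTET2 library, and control replicate 3 lay among those of mTET2-R43G and mTET2-R1261C. Against control, Lip4 had a log2 fold change of 0.69 (SE 0.22, adjusted p = 0.143) in mTET2-wt, 0.56 (SE 0.22, adjusted p = 0.154) in mTET2-R43G and 0.72 (SE 0.22, adjusted p = 0.168) in mTET2-R1261C. Without control replicate 3 the log2 fold change of Lip4 was 0.99 (adjusted p = 0.0275) in mTET2-wt, just inside the limit, and 1.02 (adjusted p = 0.0284) in mTET2-R1261C, where it was called. Without both control replicate 3 and mTET2-wt replicate 3, Lip4 was again the called gene in mTET2-R1261C, with an adjusted p of 0.0413. Averaged over the mTET2 groups, Lip4 had a log2 fold change against control of 0.66 (SE 0.18, adjusted p = 0.074), bmm 0.57 (SE 0.19, adjusted p = 0.132) and Desat1 0.80 (SE 0.24, adjusted p = 0.0962). In this comparison 0 of the 10 genes were called in edgeR or DESeq2, where edgeR called 1.34% of all genes. In edgeR 5 of the 10 passed an unadjusted p under 0.05 (18.8% of all genes). With no minimum fold change, FASN3 alone passed the adjusted p in edgeR (3.96% of all genes). In DESeq2 5 of the 10 did, but the share of all genes at this threshold was not computed, so this count has no background. With the minimum fold change DESeq2 called 216 of all genes here, against 166 in edgeR.

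Libraries of 1 group differed in the level of these genes. The group mean was highest in mTET2-R1261C for 9 of the 10 genes, the exception being FASN3, and 9 of the 10 had their highest single level in mTET2-R1261C replicate 1 or 2. The share of all tested genes with these peaks was not computed, so these counts have no background. Replicate 3 of mTET2-R1261C was unlike replicates 1 and 2, with 2 of the 10 genes above their median over the 12 libraries, against 9 in each of replicates 1 and 2. In mTET2-R43G, replicate 2 held the lowest level of 3 of the 10 genes and was above the median for 1. The 10 genes summed to 12945, 9047 and 6904 CPM in mTET2-R1261C heads, 9019, 5269 and 6451 CPM in mTET2-R43G heads, 7299, 7649 and 7895 CPM in mTET2-wt, and 6382, 6649 and 6518 CPM in control.

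**Figure D3:**
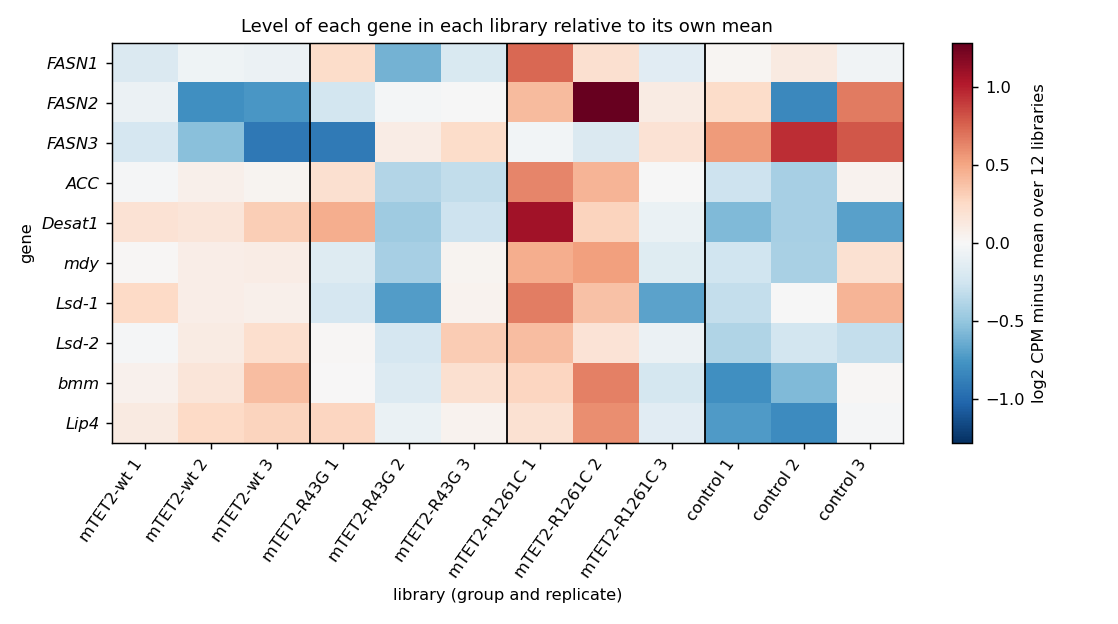
Log2 CPM of each gene (rows) in each library (columns, by group and replicate) minus the gene's mean over 12 libraries, on a colour scale centred at 0. Most rows are highest in mTET2-R1261C replicates 1 and 2 and differ from replicate 3 of that group, and FASN3 is highest in the control columns.

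Fat body markers moved in part with these levels. Without the female-biased genes, 9 fat body markers, led by apolpp, the precursor of the main lipid-carrying particle of the blood, summed to 32067, 29189 and 16869 CPM in mTET2-R1261C heads, 20562, 13156 and 16939 CPM in mTET2-R43G heads, 24542, 23617 and 22847 CPM in mTET2-wt, and 16175, 14734 and 26581 CPM in control. The full list of 13 fat body markers had a median log2 fold change of 0.24 in mTET2-R1261C heads, -0.18 in mTET2-R43G heads and 0.05 in mTET2-wt heads against control. In mTET2-R1261C and mTET2-R43G the library with most of the 10 genes also had the highest sum of the 9 markers, mostly apolpp. apolpp alone had 30301, 27402 and 15587 CPM in mTET2-R1261C heads. Lsp2 had 60.9, 140 and 12.0 CPM there, and Fbp1 in mTET2-R43G heads had 4.47, 8.29 and 22.8 CPM, so other markers did not all follow. In mTET2-wt the sums of the 10 genes and of the 9 markers ran in opposite order. The sum of all 13 markers was highest in mTET2-R1261C replicate 2, at 54798 CPM against 52049 CPM in replicate 1. In control, replicate 3 was highest in these markers and in the female-biased genes, and among the control libraries it was highest in bmm, Lip4, mdy, ACC, Lsd-1 and FASN2, but not in FASN1, Desat1, Lsd-2 or FASN3. The male-specific RNA roX1 also varied, from 347 CPM in mTET2-wt replicate 2 to 1459 CPM in control replicate 2, with 577 CPM in control replicate 3. By the paper's methods the pools held both sexes in equal ratios. The share of RNA from the head fat body or from females in each pool was not measured, and its part in these differences was not tested.

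**Figure D4:**
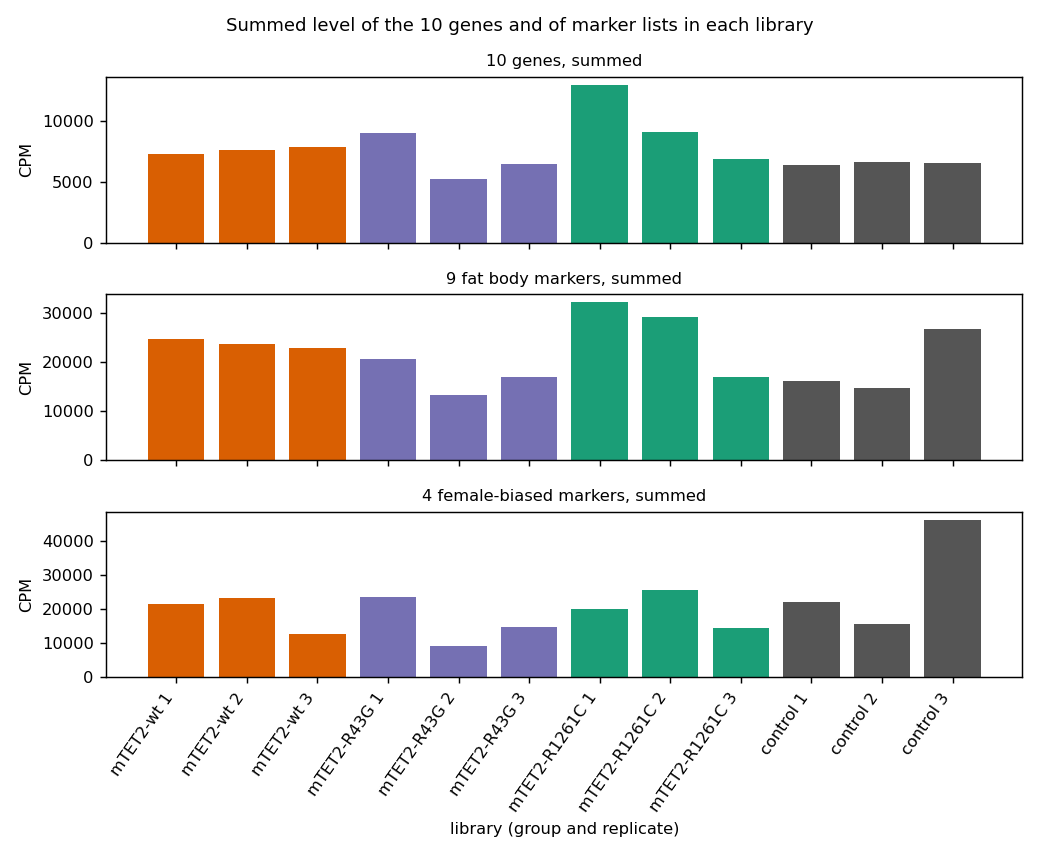
Summed CPM (bars, linear axes from 0) of the 10 genes, of 9 fat body markers and of 4 female-biased markers in each of 12 libraries, coloured by group. mTET2-R1261C replicate 1 is highest for the 10 genes at 12945 CPM, and control replicate 3 is highest for the female-biased markers at 46280 CPM.

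The mutants were then compared with mTET2-wt and with each other, to see whether the levels of these genes differed between the mTET2 groups. In mTET2-R1261C the log2 fold change against mTET2-wt was positive for 10 of the 10 genes, with a median of 0.27, and that against mTET2-R43G was positive for 10 of 10, with a median of 0.47. The medians of all tested genes were 0.00 in both. This direction was not particular to the 10 genes. Of 13 fat body markers, 13 were positive against mTET2-wt (median 0.14) and 12 against mTET2-R43G (median 0.34). Of 15 genes of fatty acid oxidation, 10 and 15 were positive in the same order. Of 95 further genes of fat metabolism, 55 and 65 were positive. None of the 10 was called: edgeR and DESeq2 called 0 in mTET2-R1261C against mTET2-wt (edgeR called 0.145% of all genes), 0 in mTET2-R1261C against mTET2-R43G (0.0724%) and 0 in mTET2-R43G against mTET2-wt (0.0804%). At an unadjusted p under 0.05, 1 gene passed in mTET2-R1261C against mTET2-wt (6.63% of all genes), 2 in mTET2-R1261C against mTET2-R43G (13% of all genes) and 0 in mTET2-R43G against mTET2-wt (9.86% of all genes).

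FASN2 differed most. Its log2 fold change in mTET2-R1261C was 1.19 against mTET2-wt (SE 0.38, adjusted p = 0.474) and 0.77 against mTET2-R43G (SE 0.37, adjusted p = 0.394). For ACC the mTET2-R1261C heads differed by 0.52 on the log2 scale against mTET2-R43G (SE 0.19, adjusted p = 0.322) and 0.35 against mTET2-wt (SE 0.19, adjusted p = 0.807), and mdy had 0.48 against mTET2-R43G (SE 0.19, adjusted p = 0.347). With single libraries left out, 7 to 10 of the 10 fold changes against mTET2-wt were positive, and 9 to 10 of those against mTET2-R43G.

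The 10 genes are part of a wider set. Of 103 further genes of fat metabolism, 95 were tested. In mTET2-wt edgeR called 2 higher and 0 lower, in mTET2-R43G 1 higher and 1 lower, and in mTET2-R1261C 1 higher and 0 lower, and DESeq2 called 2, 2 and 1 in either direction. Over all tested genes edgeR called 1.2%, 1.34% and 0.748%, so that 1 or 2 of 95 is near the share of all genes. Their median log2 fold change was 0.11 in mTET2-wt heads, 0.02 in mTET2-R43G heads and 0.13 in mTET2-R1261C heads. By role, with members of the 10 included, the calls fell in neutral lipases (1 of 21 higher in each mTET2 group), triglyceride synthesis (1 of 11 lower in mTET2-R43G), lipid regulators (1 of 12 higher in mTET2-wt) and fatty acid synthesis (1 of 8 lower in mTET2-wt, FASN3). The other lists held no edgeR call against control. Of 23 desaturases and elongases, 18 had a positive log2 fold change in mTET2-wt heads (median 0.35), 17 in mTET2-R43G heads (median 0.53) and 17 in mTET2-R1261C heads (median 0.24). These include eloF and Fad2, which were at or near 0 CPM, and the share of positive values among all tested genes was not computed. Of 15 genes of fatty acid oxidation, by which fat is burned in mitochondria and peroxisomes, 12 were positive in mTET2-wt heads (median 0.16), 9 in mTET2-R43G heads (median 0.05) and 13 in mTET2-R1261C heads (median 0.25). The 6 lipid droplet proteins and the 9 genes of lipid transport and binding had medians between -0.10 and 0.11.

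The lipase gene CG5966, predicted to encode a secreted triglyceride lipase, had the largest fold change among the fat genes that were called. CG5966 had 135, 115 and 171 CPM in mTET2-wt, 104, 89.5 and 68.9 CPM in mTET2-R43G heads, 36.5, 91.8 and 73.2 CPM in mTET2-R1261C heads, and 18.3, 11.8 and 26.9 CPM in control. All 9 mTET2 libraries lay above all control libraries, with no share of all genes computed. CG5966 rose in each group, by 2.89 on the log2 scale (SE 0.36, adjusted p = 0.00168) in mTET2-wt, 2.20 (SE 0.35, adjusted p = 0.00638) in mTET2-R43G and 1.82 (SE 0.35, adjusted p = 0.0231) in mTET2-R1261C. The call in mTET2-R1261C was lost with only the libraries compared (adjusted p = 0.118) and without any of mTET2-R1261C replicates 2 and 3 and control replicates 1 and 2 (adjusted p = 0.079, 0.0529, 0.101 and 0.0926).

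Akh, the adipokinetic hormone that makes the fat body release its stores, rose in mTET2-wt. Akh had 8.76, 9.28 and 7.0 CPM in mTET2-wt, 1.57, 2.89 and 3.24 CPM in mTET2-R43G heads, 4.52, 5.36 and 2.56 CPM in mTET2-R1261C heads, and 2.96, 3.30 and 2.31 CPM in control. The mTET2-wt libraries lay above all others. Its log2 fold change in mTET2-wt was 1.54 (SE 0.29, adjusted p = 0.0196), and without single libraries its adjusted p was above 0.05 in 5 of 6 fits. The mutants overlapped control in Akh, and their difference from mTET2-wt was not called by edgeR (log2 fold change -1.70, SE 0.30, adjusted p = 0.0688 in mTET2-R43G, and -1.01, SE 0.29, adjusted p = 0.393 in mTET2-R1261C). DESeq2 called that of mTET2-R43G, with an adjusted p of 9.74e-05. The hormone is made in endocrine cells at the neck, and how much of these the head pools held was not measured.

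CG1941, predicted to encode a diacylglycerol acyltransferase and thus a parallel to mdy, fell in mTET2-R43G. CG1941 had 3.99, 2.67 and 3.05 CPM in mTET2-R43G heads, 3.89, 3.54 and 4.93 CPM in mTET2-wt, 5.51, 4.15 and 4.55 CPM in mTET2-R1261C heads, and 6.86, 7.06 and 8.76 CPM in control. All mTET2 libraries lay under all control libraries, with no share of all genes computed. Against control, CG1941 had a log2 fold change of -1.22 (SE 0.19, adjusted p = 0.00638) in mTET2-R43G heads, -0.87 (SE 0.19, adjusted p = 0.035) in mTET2-wt, under the minimum fold change, and -0.68 (SE 0.19, adjusted p = 0.126) in mTET2-R1261C. CG1942 and CG1946 are related genes, and pairs that could be placed on more than 1 of them were left out.

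With no minimum fold change, 5 of the 95 genes were higher and 1 lower in mTET2-wt at an adjusted p of at most 0.05, 4 higher and 3 lower in mTET2-R43G, and 3 higher and 0 lower in mTET2-R1261C. Of all tested genes 2.24%, 4.33% and 1.49% passed at this threshold in the same order of groups. Lpin and Men are given as examples, chosen after their values were seen. Lpin, the phosphatidate phosphatase that makes the diacylglycerol used by mdy, rose by 0.41 (SE 0.08, adjusted p = 0.024) in mTET2-wt, 0.42 (SE 0.08, adjusted p = 0.0186) in mTET2-R43G and 0.37 (SE 0.08, adjusted p = 0.0455) in mTET2-R1261C on the log2 scale, and all 9 mTET2 libraries lay above all control libraries. Men, the malic enzyme that supplies NADPH for fatty acid synthesis, rose by 0.85 (SE 0.16, adjusted p = 0.0209) in mTET2-R1261C, while its log2 fold change was 0.44 (SE 0.16, adjusted p = 0.197) in mTET2-wt and 0.23 (SE 0.16, adjusted p = 0.411) in mTET2-R43G.

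**Figure D5:**
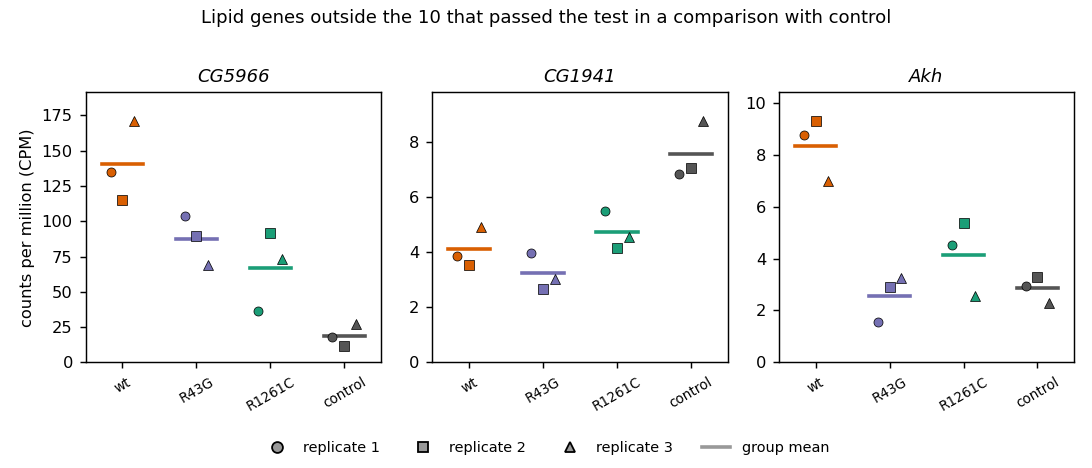
CPM (vertical axes, linear, starting at 0) of CG5966, CG1941 and Akh in the mTET2-wt, mTET2-R43G, mTET2-R1261C and control libraries; points are libraries, marked by replicate, and lines are group means. CG5966 is higher and CG1941 lower in every mTET2 library than in any control library, and Akh is higher in the mTET2-wt libraries.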

How the data were processed

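Stranded, ribosomal RNA-depleted paired-end libraries of heads were sequenced, and the authors deposited raw counts of read pairs per gene. Per the labels, HISAT2 2.1.0 aligned the reads to dm6. Per the file header, featureCounts 1.6.0 counted reverse-strand pairs over the full gene span with its introns (the labels name version 2.0.1), and pairs on more than 1 gene or place were not counted. Symbols came from the reference by identifier for 17633 genes and by position for 60, and 37 had none. Genes with fewer than 10 counts over all libraries were left out, counts were scaled with TMM (factors 0.959 to 1.05), and a model with group means was fitted once, over the 12 libraries, in edgeR 4.0.16 (R 4.3.3) with its quasi-likelihood test, with Benjamini-Hochberg adjustment over all 12433 genes. Calls needed an adjusted p no higher than 0.05 and a log2 fold change of 1 or more in size. The common biological coefficient of variation was 17.7%. P-values measure the spread between head pools.

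Alternatives were DESeq2 1.42.0, RLE size factors, other filters on low counts, a replicate block, only the libraries compared, no minimum fold change, no ribosomal RNA genes, and each library left out in turn. Ribosomal RNA genes held 2.19% to 7.31% of counts. The fits were tested on simulated data.

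The 10 genes and the lists were chosen with earlier results of these data known. Named are the 10 genes, other fat metabolism genes called in a comparison, Lpin and Men, and the 3 genes most like a called member.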

Additional observations from a re-analysis of the deposited data

How the results depend on the processing

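The number of the 10 genes called was recomputed 109 times and stayed the same in 92. Most of these were counts of 0 that stayed 0, as only mTET2-wt against control had a call in the main fit. That call was lost in most of the fits without a single library. Against control it was 0 in mTET2-wt with the replicate block and with mTET2-wt replicate 3 and control replicate 3 both left out (chosen after seeing the data), and 1 in mTET2-R1261C with DESeq2 (Desat1) and with those libraries left out (Lip4). In the mean of the mTET2 groups it was 1 with no minimum fold change. With single libraries left out it ranged from 0 to 1 in mTET2-wt, in mTET2-R1261C and in the mean of the mTET2 groups. Same-numbered libraries of different groups correlated at -0.39 to 0.21 in their deviations from the group means. Libraries with other numbers correlated at -0.34 to 0.42, so the numbers gave no sign of pairing. With 3 libraries in a group these values cannot exclude shared batches. With the replicate block, FASN3 in mTET2-wt had an adjusted p of 0.0592 (log2 fold change -1.29) and CG5966 in mTET2-R1261C of 0.0538.

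Of 57 log2 fold changes of the 10 genes, 14 changed sign under some alternative. All 14 were at most 0.29 in size, and the causes were not tested. With the libraries that stood apart left out, FASN2 and mdy in mTET2-R43G against control were at 0.13 and 0.16. With single libraries left out, the ranges against control were -0.10 to 0.28 (Lsd-1, mTET2-wt), -0.14 to 0.45 (Lsd-1, mTET2-R1261C), and, in mTET2-R43G, -0.14 to 0.21 (ACC), -0.42 to 0.0056 (FASN1), -0.55 to 0.13 (FASN2), -0.16 to 0.16 (mdy) and -0.35 to 0.10 (Akh). In mTET2-R1261C against mTET2-wt they were -0.11 to 0.52 (Desat1), -0.19 to 0.19 (Lip4), -0.20 to 0.39 (Lsd-1), -0.049 to 0.18 (Lsd-2) and -0.16 to 0.27 (bmm), and against mTET2-R43G -0.17 to 0.31 (FASN3), -0.054 to 0.33 (Lip4) and -0.0013 to 0.28 (Lsd-2). Over all genes, DESeq2 called 226 genes in mTET2-wt against control (edgeR 149), 231 in mTET2-R43G (edgeR 167) and 157 in mTET2-R1261C (edgeR 93). It called 29 in mTET2-R43G against mTET2-wt (edgeR 10), 44 in mTET2-R1261C against mTET2-wt (edgeR 18) and 2 in mTET2-R1261C against mTET2-R43G (edgeR 9). With the libraries that stood apart left out, edgeR called 61 genes in mTET2-wt and 84 in mTET2-R43G against control. The replicate block gave 102 in mTET2-R43G against control and 5 in mTET2-R1261C against mTET2-R43G. Levels without TMM factors differed by at most 1.85%. FASN2 and FASN3 had the fewest read pairs of the 10 genes.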
